A study of Solanum lycopersicum with 6 samples.

Results

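Ethylene is the hormone that drives ripening in tomato fruit, and 8 genes that carry its signal from the receptors to transcription were followed in tomato (*Solanum lycopersicum*) pericarp, the fleshy wall of the fruit. The genes were chosen by identifier, as members of the pathway, although earlier results of these data were known: *CTR1* (Solyc10g083610), *EIN2* (Solyc09g007870), *EIL1* (Solyc06g073720), *EIL2* (Solyc01g009170), *EIL3* (Solyc01g096810), *EIL4* (Solyc06g073730), *EBF1* (Solyc12g009560) and Solyc07g008250. They are 8 of the 23709 genes listed in at least 1 library, and 8 of 8 were listed in every library and had enough reads to be tested. The last identifier was entered under the name *EBF2*, but the RefSeq gene of that name lies on chromosome 8 and not on chromosome 7, so Solyc07g008250 is given by its identifier and its role as an F-box gene is unverified. For the other 7 names, RefSeq and the identifier give the same chromosome, but RefSeq lists *EBF1* and *EBF2* as synonyms of each other, so the name *EBF1* is also less certain.

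In the absence of ethylene the receptors keep the protein kinase CTR1 active, and CTR1 holds back the membrane protein EIN2. When ethylene binds the receptors, EIN2 is released and the EIN3-like (EIL) transcription factors accumulate and switch on ethylene-responsive genes. EBF proteins are F-box proteins that mark the EIN3 and EIL factors for breakdown; in *Arabidopsis* an EBF gene is itself switched on by EIN3, which closes a feedback loop.

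The study measured RNA by sequencing in 3 libraries of fruit labelled SlDof1 RNAi, in which a Dof zinc-finger transcription factor is to be silenced by double-stranded RNA, and in 3 libraries of wild-type fruit, all harvested at 38 days post anthesis. The labels give neither the promoter of the RNAi construct nor the number of transgenic lines or fruits, and no label says which gene identifier SlDof1 has, which left its silencing unchecked here. The titles of these libraries read SlDof-8, which the labels do not explain. Nothing says that the replicates are separate plants, so p-values measure the spread between these libraries, which may be technical. Libraries held between 9641678 and 9942009 expected counts in SlDof1 RNAi fruit and between 9608643 and 10002358 in wild-type fruit, and each of the 8 genes had between 951 and 4161 counts in a library.

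SlDof1 RNAi replicate 3 and wild-type replicate 1 stood apart from the other 4 libraries: the second principal component, with 30.4% of the variance, put them at -32.2 and -32.6 and the others between 13.7 and 18.3. All 8 genes were lower on the log2 CPM scale in these libraries than in the mean of the other libraries of the same group, against 36.9% of all tested genes. Results are therefore also given for the 4 libraries without them, a split that was found in these data and can make p-values too small. The ripening markers *PG2a*, *PSY1* and *RIN* were present in every library, with a summed level of 1114 to 1274 FPKM in SlDof1 RNAi fruit and 2652 to 3617 FPKM in wild-type fruit. Each was lower in every SlDof1 RNAi library than in any wild-type library. *PG2a* had 137 to 215 FPKM in SlDof1 RNAi fruit and 1040 to 1650 FPKM in wild-type fruit. *RIN* had 217 to 295 FPKM and 341 to 530 FPKM, and *PSY1* 757 to 763 FPKM and 1270 to 1440 FPKM. Of 2 seed and locule markers, *AGL11* was in no file and *MBP3* lay between 1.8 and 2.5 FPKM in SlDof1 RNAi fruit and between 2.1 and 2.4 FPKM in wild-type fruit. Of 4 epidermis markers, *SHN3* was in no file, *CD1* was listed in 1 library at 0.1 FPKM, and *CD2* and *CER6* were present throughout, so that the list summed to 85.5 to 106.2 FPKM in SlDof1 RNAi fruit and 58.2 to 65.9 FPKM in wild-type fruit. The part of ripening stage and the part of epidermal tissue in the results that follow were not tested.

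Along the pathway, SlDof1 RNAi fruit had less transcript of the transcription factor gene *EIL2* and of the F-box gene *EBF1*, while the upstream genes *CTR1* and *EIN2*, the factor genes *EIL1*, *EIL3* and *EIL4* and the F-box candidate Solyc07g008250 did not pass the test. *EIL2* fell 1.63-fold and *EBF1* 1.53-fold. In edgeR's quasi-likelihood test, with p-values adjusted by Benjamini and Hochberg's method over 16737 genes, 2 of the 8 genes were lower and 0 higher; among all tested genes 12.3% were called, 5.8% lower and 6.54% higher. At an unadjusted p under 0.05, 2 were lower and 0 higher, and DESeq2 and limma on log2(FPKM + 1) made the same counts. The median log2 fold change of the 8 genes was -0.05, beside -0.01 over all genes tested. The FPKM values of the groups did not overlap for 3 of the 8 genes, beside 31% of all tested genes. In bulk tissue, fewer cells of a type and less RNA per cell cannot be told apart.

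**Figure D1:**
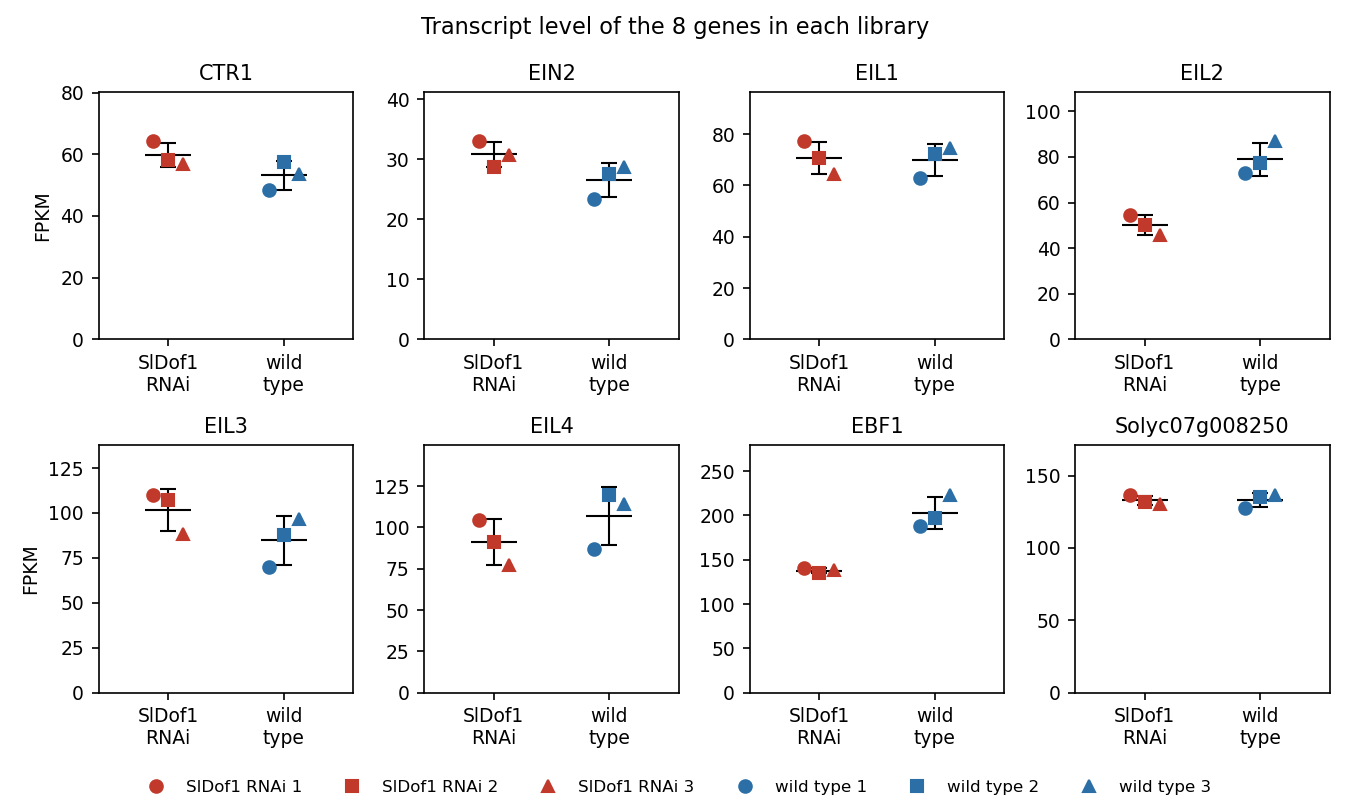
Transcript level in FPKM (fragments scaled by gene length and library total, axes from 0) of the 8 genes in the 3 SlDof1 RNAi libraries (red) and the 3 wild-type libraries (blue), with replicates 1, 2 and 3 as circles, squares and triangles. Black marks are the mean and SD; *EIL2* and *EBF1* lie lower in all SlDof1 RNAi libraries than in any wild-type library, and *EIN2* lies slightly higher.

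Neither *CTR1* nor *EIN2*, the first steps below the receptors, passed the test. *CTR1*, which encodes the kinase that represses the pathway, had 64.1, 58.2 and 56.9 FPKM in SlDof1 RNAi fruit, against 48.3, 57.4 and 53.6 FPKM in wild-type fruit. The groups overlapped, since wild-type replicate 2 lay above SlDof1 RNAi replicate 3. The fitted level was 1.08 times that of wild type, with a 95% interval of 0.926 to 1.27 (edgeR adjusted p = 0.538), and in the 4 libraries without the pair that stands apart the log2 fold change was 0.09, against 0.11 in all 6. *EIN2*, the membrane protein that *CTR1* holds back, had 33.0, 28.8 and 30.7 FPKM in SlDof1 RNAi fruit, against 23.3, 27.6 and 28.6 FPKM in wild-type fruit. On the FPKM scale every SlDof1 RNAi library was above every wild-type library. Replicate 2 of the RNAi fruit exceeded replicate 3 of the wild type only narrowly, and both had an expected count of 1208. The difference in *EIN2* did not pass the test (1.12 times wild type, 95% interval 0.943 to 1.33, edgeR adjusted p = 0.408). In the 4 libraries its log2 fold change was 0.09, against 0.16 in all 6. Within a library *CTR1* transcript was 1.85 to 2.02 times that of *EIN2* in SlDof1 RNAi fruit and 1.87 to 2.08 times in wild-type fruit, on the FPKM scale, so the ratio of these upstream genes overlapped between the groups.

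The 4 EIL genes encode related transcription factors, of which *EIL2* passed the test and the other 3 did not. *EIL2* had 54.6, 50.3 and 45.9 FPKM in SlDof1 RNAi fruit, against 72.8, 77.2 and 86.8 FPKM in wild-type fruit. The lowest wild-type library lay well above the highest SlDof1 RNAi library. The log2 fold change was -0.71 ± 0.11 SE (n = 3 per group, edgeR adjusted p = 0.00461), a 1.63-fold lower level with a 95% interval of 1.37 to 1.94. In the 4 libraries without the pair that stands apart it was -0.69 (edgeR adjusted p = 2.94e-05).

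*EIL3* had 110, 107 and 88.6 FPKM in SlDof1 RNAi fruit, against 70.0, 87.6 and 96.5 FPKM in wild-type fruit. The groups overlapped through SlDof1 RNAi replicate 3, which lay below wild-type replicate 3. The fitted level was 1.16 times wild type with a 95% interval of 0.924 to 1.45 (edgeR adjusted p = 0.414), and without wild-type replicate 1 the log2 fold change was 0.09, against 0.21 in all 6 libraries. In the 4 libraries it was 0.19 (edgeR adjusted p = 0.0762). *EIL3* passed the threshold in 1 of 17 alternative fits, that with the pair of libraries as a term (log2 fold change 0.22, edgeR adjusted p = 0.00549).

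*EIL1* and *EIL4* carry consecutive identifiers, and in the RefSeq assembly SLM_r2.1 they lie next to each other on chromosome 6 with 1 gene, a transfer RNA gene, between them. Their reads were partly shared by the authors' counting. In 4 libraries both genes had fractional expected counts, such as 1353.42 for *EIL1* and 1822.58 for *EIL4* in SlDof1 RNAi replicate 1, while their sum was whole within 0.005 in all 6 libraries. The other 6 of the 8 genes had whole counts in every library. In SlDof1 RNAi replicate 3 and wild-type replicate 1, the libraries that stand apart, *EIL1* and *EIL4* had whole counts too, with 1119 and 1335 in the SlDof1 RNAi library and 1092 and 1497 in the wild-type library. The split between *EIL1* and *EIL4* is therefore uncertain by the reads that match both.

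As listed, *EIL1* had 77.1, 70.5 and 64.4 FPKM in SlDof1 RNAi fruit, against 62.9, 72.3 and 74.8 FPKM in wild-type fruit. These ranges covered each other almost fully, and the fitted level was 0.972 times wild type (95% interval 0.818 to 1.16; edgeR adjusted p = 0.867), with a sign that changed between fits and a log2 fold change of -0.04 in the 4 libraries. *EIL4* had 105, 91.4 and 77.4 FPKM in SlDof1 RNAi fruit, against 87.0, 120 and 114 FPKM in wild-type fruit. SlDof1 RNAi replicates 1 and 2 lay between wild-type replicate 1 and the other wild-type libraries, and SlDof1 RNAi replicate 3 lay below all of them. The difference did not pass with all libraries (0.821 times wild type, 95% interval 0.642 to 1.05; edgeR adjusted p = 0.302). It did pass in the 4 libraries without the pair that stands apart (log2 fold change -0.30, edgeR adjusted p = 0.0107) and with that pair as a term (-0.28, edgeR adjusted p = 0.000884). With the reads of both genes summed to avoid the split, a fit added after the values were seen, the counts were 3176, 2861 and 2454 in SlDof1 RNAi fruit and 2589, 3355 and 3353 in wild-type fruit. The summed level was 0.881 times wild type with a 95% interval of 0.713 to 1.09 (edgeR adjusted p = 0.455).

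**Figure D2:**
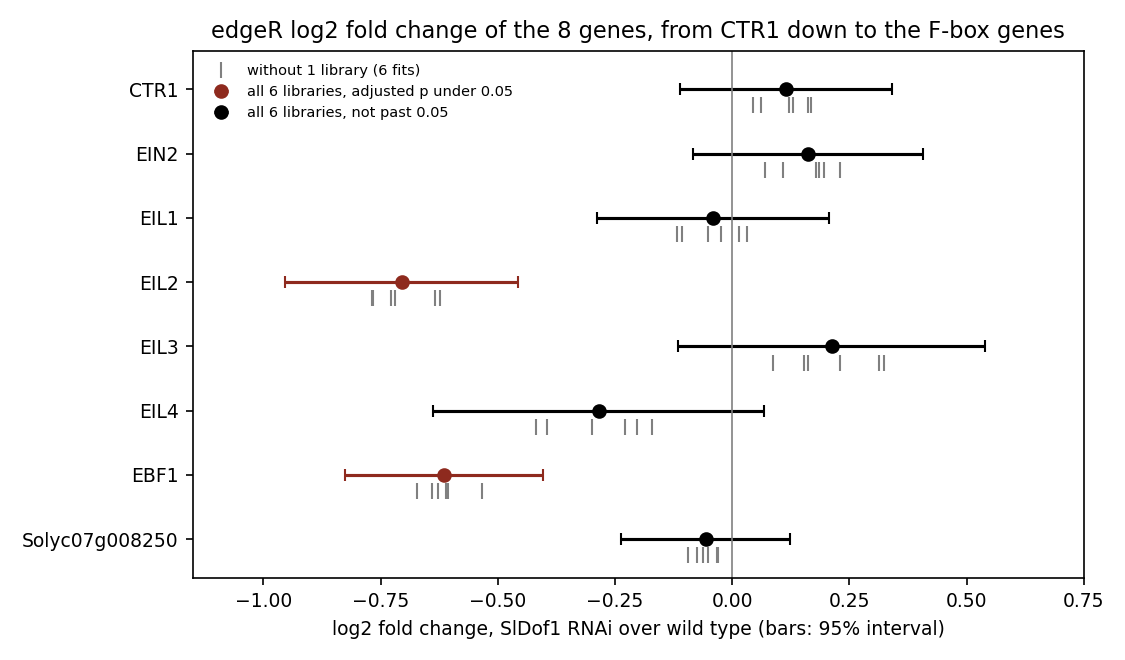
Log2 fold change of each gene, SlDof1 RNAi over wild type, from edgeR, in pathway order from top to bottom; points are the fit to all 6 libraries, bars its 95% interval, and grey ticks the 6 fits that leave out 1 library each. The intervals of *EIL2* and *EBF1* lie below 0, from -0.95 to -0.46 and from -0.83 to -0.40, and those of the other 6 genes cross 0.

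The EIL genes were also expressed as shares of their summed level, which cancels the library scaling. *EIL2* made up 15.8%, 15.8% and 16.6% of the summed EIL FPKM in SlDof1 RNAi fruit, against 24.9%, 21.6% and 23.3% in wild-type fruit. *EIL3* made up 31.8%, 33.5% and 32.1% in SlDof1 RNAi fruit, against 23.9%, 24.5% and 25.9% in wild-type fruit. Neither share overlapped between the groups, and the libraries that stand apart lay with their own groups. The ratio of *EIL3* to *EIL2* was 2.02 ± 0.0985 in SlDof1 RNAi fruit and 1.07 ± 0.094 in wild-type fruit (SD, n = 3), so the genes were at like levels in the wild type and about 2-fold apart in the RNAi fruit. *EIL4* made up 28.0% to 30.2% in SlDof1 RNAi fruit and 29.7% to 33.6% in wild-type fruit, which overlapped, and *EIL1* made up 22.1% to 23.3% in SlDof1 RNAi fruit and 20.1% to 21.5% in wild-type fruit, which narrowly did not. The shares of *EIL1* and *EIL4* depend on the uncertain split of their common reads. The summed level of all 4 was 347, 319 and 276 FPKM in SlDof1 RNAi fruit and 293, 357 and 372 FPKM in wild-type fruit, so the totals overlapped. Without *EIL2* the sum of the other factors averaged 264 ± 31.2 FPKM in SlDof1 RNAi fruit and 262 ± 36.4 FPKM in wild-type fruit (SD, n = 3). Shares and ratios are given as descriptions and were not tested. The shares of a library sum to the whole, so a lower share of *EIL2* by itself raises those of the other factors.

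**Figure D3:**
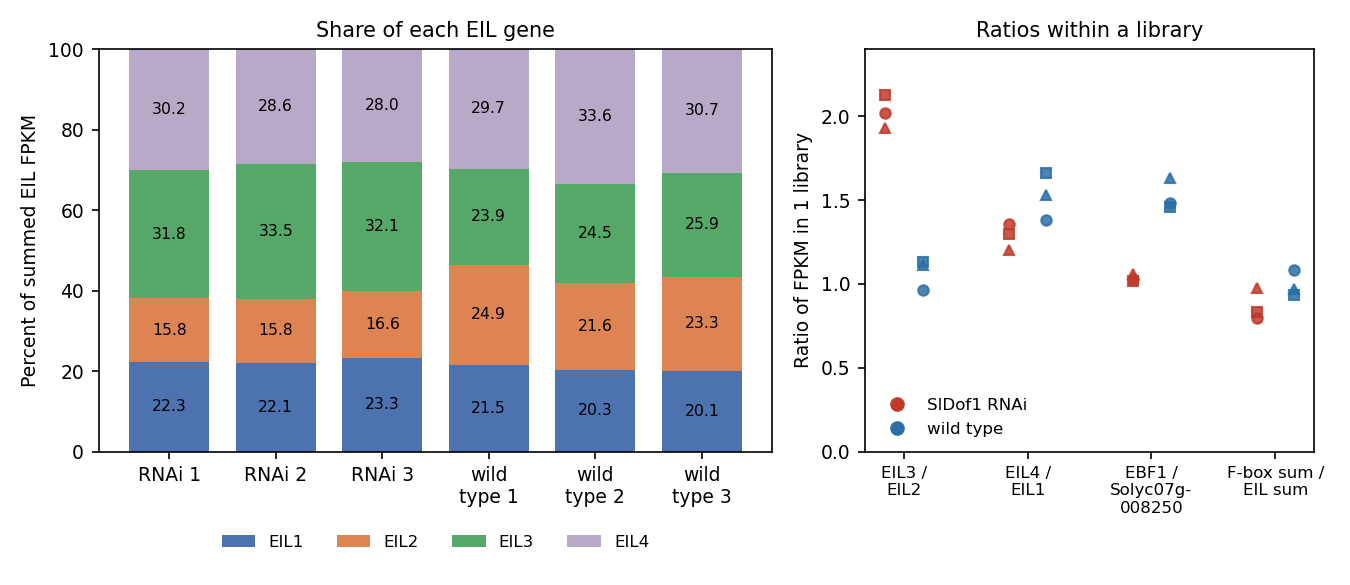
Left, the percent of the summed EIL FPKM that each of the 4 EIL genes made up in each library. Right, ratios of FPKM within a library, with SlDof1 RNAi in red and wild type in blue (circles, squares and triangles are replicates 1, 2 and 3). The *EIL3* to *EIL2* ratio is 1.93 to 2.13 in SlDof1 RNAi fruit and 0.962 to 1.13 in wild-type fruit. The *EBF1* to Solyc07g008250 ratio is 1.02 to 1.06 in SlDof1 RNAi fruit and 1.46 to 1.63 in wild-type fruit. The F-box sum is that of *EBF1* and Solyc07g008250, whose role as an F-box gene is unverified.

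At the feedback end of the pathway *EBF1* fell and Solyc07g008250 did not pass the test. *EBF1* had 141, 135 and 138 FPKM in SlDof1 RNAi fruit, against 188, 198 and 223 FPKM in wild-type fruit. All SlDof1 RNAi libraries lay below all wild-type libraries, and they lay close together, with a coefficient of variation of 2.24% against 8.91% in wild type. The log2 fold change was -0.61 ± 0.09 SE (n = 3 per group, edgeR adjusted p = 0.00398), a 1.53-fold lower level with a 95% interval of 1.32 to 1.77. In the 4 libraries without the pair that stands apart it was -0.66 (edgeR adjusted p = 2.36e-05).

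Solyc07g008250 had 136, 132 and 131 FPKM in SlDof1 RNAi fruit, against 128, 135 and 137 FPKM in wild-type fruit. The fitted level was 0.961 times wild type with a 95% interval of 0.849 to 1.09 (edgeR adjusted p = 0.723), the narrowest interval of the 8 genes on the log2 scale, and its groups overlapped almost fully. In the 4 libraries the log2 fold change was -0.07. The ratio of *EBF1* to Solyc07g008250 was 1.03, 1.02 and 1.06 in SlDof1 RNAi libraries and 1.48, 1.46 and 1.63 in wild-type libraries, with no overlap; the difference between the fold changes of these genes was not tested. The sum of both was 271 ± 5.65 FPKM in SlDof1 RNAi fruit and 336 ± 22.3 FPKM in wild-type fruit (SD, n = 3). It is called the F-box sum here, although the role of Solyc07g008250 as an F-box gene is unverified. Set against the summed EIL level of the same library, this F-box sum was 0.799, 0.834 and 0.973 in SlDof1 RNAi fruit and 1.08, 0.932 and 0.967 in wild-type fruit. These ratios overlapped through SlDof1 RNAi replicate 3, and the groups were not separated.

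Ordered by level per length, *EBF1* was the most abundant of the 8 genes in both groups and *EIN2* the least. In SlDof1 RNAi fruit the order was *EBF1*, Solyc07g008250, *EIL3*, *EIL4*, *EIL1*, *CTR1*, *EIL2* and *EIN2*, against *EBF1*, Solyc07g008250, *EIL4*, *EIL3*, *EIL2*, *EIL1*, *CTR1* and *EIN2* in wild-type fruit. *EIL2* thus stood at the seventh place in SlDof1 RNAi fruit, below *CTR1* in every library, and at the fifth place in wild-type fruit, above *CTR1* in every library. In SlDof1 RNAi fruit *EBF1* overlapped Solyc07g008250 and *EIL3* overlapped *EIL4*, and no other neighbours in the order did. In wild-type fruit *EBF1* stood clear of Solyc07g008250, while *EIL4* overlapped *EIL3*, *EIL3* overlapped *EIL2*, and *EIL2* overlapped *EIL1*. All 8 genes were well expressed: by mean FPKM over the 6 libraries, *EIN2* exceeded 78.0% and *EBF1* 96.6% of the genes listed. The listed length was a multiple of 3 for 6 of the 8 genes, not for *EIL2* and *EIL3*, so some gene models may hold the coding part only, and levels of different genes depend on those lengths.

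Among the other genes of ethylene synthesis and signalling, 8 of 25 tested were lower in SlDof1 RNAi fruit, 3 were higher and 14 did not pass (edgeR quasi-likelihood test, adjusted over all genes), and their median log2 fold change was -0.30. For all tested genes the shares were 5.8% lower and 6.54% higher, beside which the counts of each list below are to be read. Directly upstream of *CTR1*, 4 of 7 receptor genes fell and 3 did not pass, with a median log2 fold change of -0.52. Among the receptors, *ETR6* (-1.22 ± 0.11 SE on the log2 scale, adjusted p = 0.000419 by edgeR) and *NR* (-0.68 ± 0.11 SE, adjusted p = 0.00662 by edgeR) fell most. *ETR6* was at a low level, with 5.65 to 7.09 FPKM in SlDof1 RNAi fruit and 13.7 to 15.1 FPKM in wild-type fruit. *NR* had 96.6 to 117 FPKM and 141 to 181 FPKM. The receptors bind ethylene and repress the pathway when it is absent. *CTR3* and *CTR4*, relatives of *CTR1*, did not pass, with log2 fold changes of -0.04 and 0.01 (edgeR adjusted p = 0.83 and 0.963). Of 9 tested genes that encode ACC synthases and ACC oxidases, the enzymes of ethylene synthesis, 3 fell, 3 rose and 3 did not pass. *ACS4* had the largest fall (log2 fold change -2.02) and *ACO3* the largest rise (2.69). The rise of *ACO3* was from a low level, 1.43 to 2.18 FPKM in wild-type fruit, to 12.2 to 13.1 FPKM in SlDof1 RNAi fruit. *ACS4* had 73.3 to 105 FPKM in wild-type fruit and 20.6 to 23.6 FPKM in SlDof1 RNAi fruit. Without wild-type replicate 2 or without wild-type replicate 3, 1 gene of these lists was called higher; *ACO4* and *ACO6*, named after their values were seen, then missed the threshold (edgeR adjusted p of 0.066 to 0.0774) with log2 fold changes of 0.44 to 0.59, against 0.63 and 0.51 in all libraries. The ethylene-responsive gene *E4* did not pass (-0.42, edgeR adjusted p = 0.3). It had 1610, 1820 and 1020 FPKM in SlDof1 RNAi fruit, against 1460, 2150 and 2130 FPKM in wild-type fruit. Of 6 ethylene response factor genes, which act below the EIL factors, *ERF.F5* fell (-0.54 ± 0.08 SE, edgeR adjusted p = 0.00405) and 5 did not pass. In the 4 libraries without the pair that stands apart, the log2 fold changes were -1.32 for *ETR6*, -0.67 for *NR*, -1.90 for *ACS4*, 2.79 for *ACO3* and -0.51 for *ERF.F5*. That fit called 12 genes of these lists lower and 5 higher, where 3693 of all 16794 genes tested were called.

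**Figure D4:**
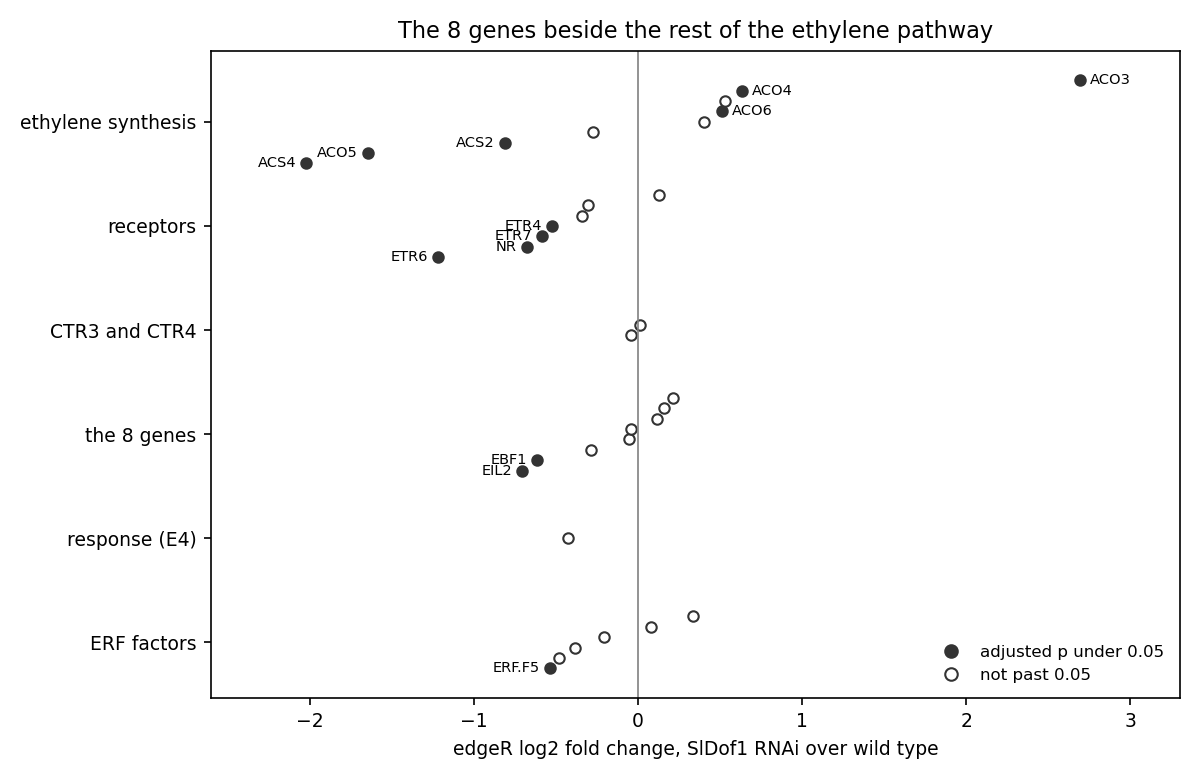
Log2 fold change, SlDof1 RNAi over wild type, of the 8 genes and of 25 other tested genes of ethylene synthesis, perception and response, 1 point a gene; filled points passed an adjusted p of 0.05 in edgeR. Called genes lie on the lower side in the receptors (4 of 7) and among the 8 genes (2 of 8), on both sides in synthesis (3 lower and 3 higher of 9), and none of *CTR3* and *CTR4* was called. Of all tested genes 5.8% were called lower and 6.54% higher.

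The genes nearest in pattern were found by the root mean square difference of centred log2 CPM over the 6 libraries, among 32 other genes of the pathway. This measure includes the change between the groups. Genes with like fold changes therefore lie near each other, and far from most unchanged genes, by construction. For *EIL2* the nearest was *EBF1*, at a difference of 0.0838, beside a median of 0.411 from *EIL2* to all tested genes. For *EBF1* the nearest was the receptor gene *ETR4*, at 0.0771, followed by *EIL2*, beside a median of 0.366. The log2 fold change of *ETR4* was -0.52 (adjusted p = 0.00845 by edgeR), and -0.54 in the 4 libraries. Over all tested genes, 11 were nearer to *EIL2* than *EBF1* was, and 20 were nearer to *EBF1* than *ETR4* was.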

How the data were processed

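Total RNA from pericarp frozen at harvest was extracted with SDS and phenol and sequenced on an Illumina instrument, per the labels' protocols. The deposited files give, per gene, an expected count (reads that match several genes shared among them) and an FPKM value, per the file headers; no source used here gives the aligner, the counter, the strand or the genome build. Genes that a file does not list were given 0. Expected counts were rounded, filtered with filterByExpr (10 counts in a median library, 15 in all), scaled by TMM and compared with edgeR's quasi-likelihood test, group as the only term, with Benjamini-Hochberg adjustment and a threshold of 0.05. Log2 fold changes are SlDof1 RNAi over wild type; intervals use the standard error and the fit's degrees of freedom. FPKM values are as deposited. Alternatives were DESeq2, other scaling factors and filters, limma on log2(FPKM + 1) and log2(FPKM + 0.1), a replicate block, the outlying pair of libraries as a term, and fewer libraries.

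The 8 genes and the lists were chosen with earlier results of these data known. The text names the 8 genes, at most the 2 called genes of each list with the largest change, and the nearest gene of each called member. *CTR3*, *CTR4*, *E4* and the markers complete short lists. *ACO4* and *ACO6* fall outside this rule and were named after their values were seen. Names were written from memory and checked by RefSeq chromosome (SLM_r2.1): of 37 list names 29 matched, 6 had no RefSeq gene of that name (*NR* and 5 ERF genes, *ERF.F5* among them) and 2 (*CTR2* and *E8*) lay elsewhere and were left out. Python 3.11.15 and matplotlib 3.10.9 drew the figures, and DESeq2 1.42.0, edgeR 4.0.16 and limma 3.58.1 ran in R 4.3.3.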

Additional observations from a re-analysis of the deposited data

How the results depend on the processing

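*EIL2* and *EBF1* stayed lower and past the threshold in all 17 alternatives (log2 fold change -0.77 to -0.62 and -0.67 to -0.53; adjusted p up to 0.0422 and 0.0435). Without 1 library each, 2 of the 8 genes were lower and 0 higher in every fit. With the term for the pair of libraries 3 were lower and 1 higher, where 5384 of all 16737 genes tested were called. In the 4 libraries 3 were lower, where 3693 of 16794 genes tested were called. Both fits thus called more genes of every kind than the main fit. The sign of *EIL1* reversed with limma on log2(FPKM + 1) (0.0133, filtered or not) and log2(FPKM + 0.1) (0.0135). In these limma fits the median log2 fold change over all genes tested was 0.0302 to 0.0459, against -0.0097 in the main fit. The sign of *EIL1* also reversed without SlDof1 RNAi replicate 3 (0.0319) or wild-type replicate 3 (0.0151). Its range was -0.117 to 0.0319 without 1 library each. The cause of these reversals was not tested. With the replicate number as a block the same 2 genes were called, and the lists gave 4 lower and 1 higher, against 8 and 3. Among the list genes that no longer passed were *NR*, *ETR4*, *ERF.F5*, *ACO4* and *ACO6* (edgeR adjusted p = 0.0521, 0.0893, 0.0527, 0.0509 and 0.0919). Whether the numbers pair the samples is not known: same-numbered libraries deviated with r of -0.493, 0.279 and -0.521, and no library correlated best with its own number. The deviations sum to 0 within a group and hold the split of the outlying pair, so this check cannot settle it. All alternatives for the lists and their genes, sums and ratios were chosen after seeing the data. The lists gave 13 lower and 6 higher with the term and 12 lower and 5 higher in the 4 libraries, against 8 and 3. Over all genes 2065 were called (53.0% higher), against 877 with the block, 3693 in the 4 libraries, 5384 with the term and 1108 to 2038 without 1 library; with limma on log2(FPKM + 1), 63.3% of the calls were higher. Each of the 8 genes had at least 951 counts in a library.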
